A study of Homo sapiens with 4 samples.

Results

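The 10 genes described here encode the D-type cyclins (*CCND1*, *CCND2* and *CCND3*), the E-type cyclins (*CCNE1* and *CCNE2*), the cyclin-dependent kinases (CDKs) of the G1 phase (*CDK2*, *CDK4* and *CDK6*) and a pair of CDK inhibitors (*CDKN1B* and *CDKN2B*). They were chosen by name from the 63677 Ensembl genes of the count table, with earlier results of these data known. LX-2 is an established human cell line derived from hepatic stellate cells, which produce collagen in a fibrotic liver. The cells had received either a mimic of miR-6133-5p or miControl, a mimic sold as a negative control, by lipid transfection at 20 nM, and rhTGF-β1 at 5 ng/mL was added to all of them 24 h later. RNA was taken after a further 24 h, and each group had 2 libraries. No library of untransfected cells or of cells without rhTGF-β1 was analysed here, a single cell line was used, and the labels do not say whether the 2 replicates were separate cultures.

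Cyclins are the regulatory partners that switch CDKs on. D-type cyclins rise with growth factor signals and pair with CDK4 or CDK6, and E-type cyclins later pair with CDK2. Both kinds of complex phosphorylate the retinoblastoma protein, which releases E2F transcription factors and commits the cell to DNA synthesis. The protein p15, encoded by *CDKN2B*, is induced by TGF-β in many cell types and binds CDK4 and CDK6, whereas p27, encoded by *CDKN1B*, inhibits mainly the CDK2 complexes. Activated stellate cells proliferate during fibrogenesis, and this machinery drives that division.

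Counts on genes summed to between 51862006 and 93811213 per library, and 3 counts corresponded to at most 0.0610 CPM (the depth-normalized count of edgeR, in which each count is divided by a library total scaled by its TMM factor). Across 18252 tested genes, which are not independent samples, the replicates correlated with r = 0.991 in both groups (Pearson, log2 CPM). Of 9 stellate markers, 7 were tested, among them the genes of collagen I, α-smooth muscle actin and vimentin, and *DES* and *LRAT* had at most 7 counts in any library. The summed level of the 9 was 4948 to 5444 CPM with miControl and 3108 to 3476 CPM with miR-6133-5p. Within it, *COL1A1* alone went from a mean of 2917 to 1064 CPM. By the rule of the next paragraph, 3 of them (*COL1A1*, *COL1A2* and *ACTA2*) were called lower, against 5.54% of all tested genes. The log2 fold changes of the other tested markers were -0.44 for *COL3A1*, -0.02 for *VIM*, 0.04 for *PDGFRB* and 0.42 for *TIMP1*. Of 10 matched markers of other liver cells, 9 were too low to be tested, with at most 23 counts, and *KRT7* was at 3.62 to 7.08 CPM. The summed level of these other markers was 4.15 to 4.96 CPM with miControl and 7.30 to 7.88 CPM with miR-6133-5p, and the part of either sum in the results was not tested. Across genes, longer exons went with a higher level in replicate 2 than in replicate 1 (Spearman's rho = 0.11 for miControl and 0.24 for miR-6133-5p), but hardly with the difference between the groups (rho = -0.05, 17717 genes).

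All 10 genes were expressed highly enough to be tested. *CDK6* and *CCND2* were called lower in the miR-6133-5p libraries. A call needed an adjusted p below 0.01 together with a change of more than 0.8 on the log2 scale (quasi-likelihood test of edgeR, Benjamini–Hochberg adjustment over all tested genes). These 2 of 10 genes compare with 5.54% of all tested genes called lower. As the 10 genes were chosen with earlier results of these data known, the shares here are descriptions and not a test. None of the 10 was called higher, against 2.9% of all tested genes, either with edgeR or with DESeq2, and 3 of them were higher at an unadjusted p below 0.05, against 20.0% of all tested genes. The median log2 fold change of the 10 genes was 0.03, the same as that of all tested genes at 0.03. The groups did not overlap for 8 of the 10 genes, against 64.4% of all tested genes. Of these 8, 4 were below the controls and 4 above, against 31.3% and 33.2% of all tested genes. In these bulk samples, less RNA per cell and fewer cells that express a gene cannot be told apart.

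**Figure D1:**
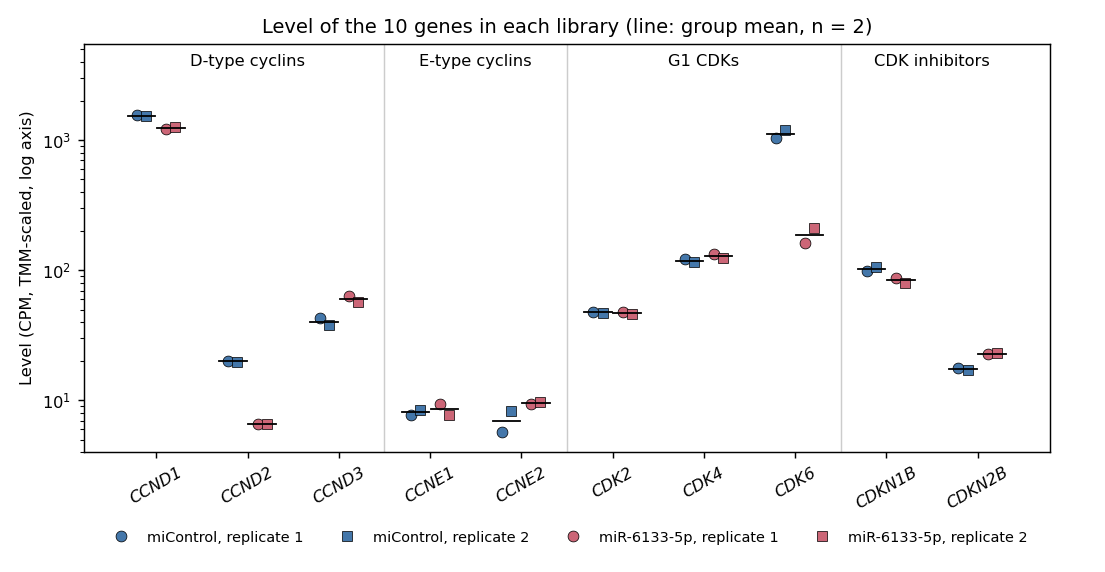
Level of each of the 10 genes in each of the 4 libraries, in CPM on a log axis, with circles for replicate 1, squares for replicate 2 and a line at the mean of each group. The group mean of *CDK6* goes from 1115 to 187 CPM and that of *CCND2* from 19.97 to 6.61 CPM, whereas the means of the other 8 genes differ by at most 1.51-fold.

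*CDK6*, the kinase that D-type cyclins activate together with CDK4, showed the strongest change. Its gene (ENSG00000105810) lies on chromosome 7 from 92234235 to 92465887 in GRCh37, on the minus strand. Library by library, it was at 1035 and 1195 CPM in the miControl libraries and at 162 and 211 CPM in the miR-6133-5p libraries. Both treated libraries were far below both controls, and replicate 2 was the higher one in each group. *CDK6* thus went from 1115 ± 113 to 187 ± 35.1 CPM (SD, n = 2), 5.97-fold lower, which is -2.58 on the log2 scale (standard error, SE, 0.139 and adjusted p = 6.0e-08 by edgeR). It had the 45th largest fall of the 18252 tested genes and the 4th largest among the 2351 genes with a mean of at least 100 CPM. Genes with at least 10 kb of exon, as *CDK6* has, had a median log2 fold change of -0.04, and *CDK6* had the 6th largest fall of these 2317 genes. Leaving out each library in turn gave log2 fold changes from -2.80 to -2.42. An antisense gene covers 0.703% of its exon bases.

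*CDK4*, on chromosome 12 from 58141510 to 58149796, encodes the other kinase that D-type cyclins bind. It was at 122 and 116 CPM with miControl and at 132 and 125 CPM with miR-6133-5p. The treated libraries were slightly above the controls, by a log2 fold change of 0.12 with a 95% interval of -0.10 to 0.34 (adjusted p = 0.440, edgeR). *TSPAN31*, transcribed from the other strand, shares 44.2% of the exon bases of *CDK4*, and the strand setting of the counting is not given in the sources used here. *TSPAN31* itself had 8.72 to 10.1 CPM in the 4 libraries.

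*CDK2*, the partner of the E-type cyclins, lies on chromosome 12 from 56360565 to 56366573. Its 4 values were 47.5 and 47.4 CPM with miControl and 47.7 and 46.2 CPM with miR-6133-5p, so that the groups overlapped. The log2 fold change was -0.02, with an interval of -0.23 to 0.20 (adjusted p = 0.933, edgeR), and it was 0.15 with scaling by library totals alone. *PMEL* and another gene of the other strand share 16.8% of its exon bases, and *PMEL* was below 1 CPM in every library, at 0.459 to 0.749 CPM.

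The level of a gene can be compared with that of another only per length. Per kb of exon, *CDK6* stood at 91.1 ± 9.20 CPM and *CDK4* at 38.5 ± 1.36 CPM with miControl (SD, n = 2). With miR-6133-5p the order was turned, with 15.3 ± 2.87 CPM per kb for *CDK6* and 41.7 ± 1.64 CPM per kb for *CDK4*. The share of *CDK6* in the sum of both was 68.2% and 72.2% in the miControl libraries and 23.6% and 29.9% in the miR-6133-5p libraries. The summed level of the 2 kinases per kb went from 130 ± 7.84 to 56.9 ± 1.23 CPM, 2.28-fold lower. The shares of the groups did not overlap, and an exact 2-sided permutation test of 2 libraries against 2 can give no p smaller than 0.333.

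The turned order depended on the division by length. With the canonical transcript of each gene as its length, an alternative chosen after the data were seen, the share of *CDK6* was 59.9% with miControl and 18.8% with miR-6133-5p. Without division by length it was 90.3% and 58.9%, so that *CDK6* kept the larger number of counts in both groups. On each of the 3 scales the share was lower with miR-6133-5p by more than the spread between replicates.

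**Figure D2:**
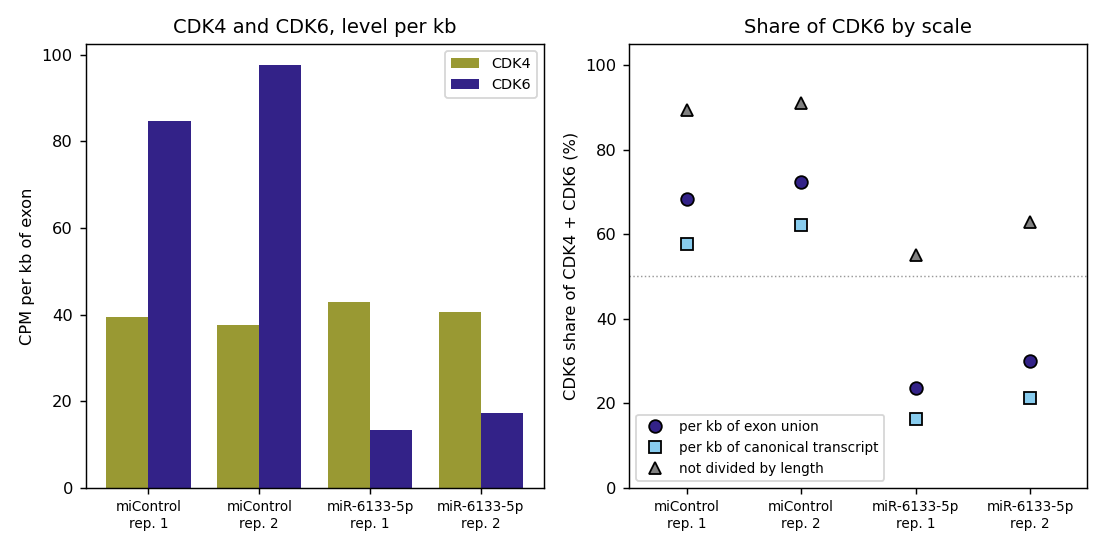
Left, level of *CDK4* and *CDK6* in each library in CPM per kb of exon, as bars from 0. Right, percentage of *CDK6* in the sum of *CDK4* and *CDK6* in each library on 3 scales, with a dotted line at equal shares. On both scales divided by length, *CDK6* exceeds *CDK4* in the miControl libraries and is below it in the miR-6133-5p libraries, and with undivided counts it exceeds *CDK4* in all 4 libraries.

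Among the D-type cyclins, *CCND2* was the only one called. Its gene (ENSG00000118971) lies on chromosome 12 from 4378937 to 4414519. *CCND2* was at 20.3 and 19.7 CPM with miControl and at 6.58 and 6.64 CPM with miR-6133-5p, and the replicates of each group were nearly equal. The level was 3.02-fold lower in the treated cells, or -1.60 on the log2 scale (SE 0.122 and adjusted p = 8.04e-07 by edgeR). Leaving out each library in turn gave -1.64 to -1.59. An antisense gene covers 2.03% of its exon bases.

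*CCND1*, the most abundant of the 10 genes per kb, lies on chromosome 11 from 69455924 to 69469242. It was at 1554 and 1539.7 CPM with miControl and at 1218 and 1254 CPM with miR-6133-5p, so that both treated libraries were below both controls. The level was 1.25-fold lower, a log2 fold change of -0.32 with an interval of -0.54 to -0.11 (adjusted p = 0.0238, edgeR). This difference did not pass the threshold, and the interval stops short of a log2 fold change of -0.8. With library totals alone, which raised the median of all tested genes from 0.03 to 0.19, it was -0.16 (adjusted p = 0.227, edgeR). *LTO1*, on the other strand, shares 10.4% of its exon bases.

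*CCND3*, on chromosome 6 from 41902672 to 42018095, was the D-type cyclin with a higher level in the treated cells. Its values were 42.7 and 37.9 CPM with miControl and 63.9 and 57.5 CPM with miR-6133-5p. The groups did not overlap, and the log2 fold change of 0.59 (standard error 0.110, interval 0.35 to 0.83) had an adjusted p of 0.00118 (edgeR), below 0.01, but was short of 0.8. Leaving out each library in turn gave 0.48 to 0.67, and the adjusted p was 0.0541 without replicate 2 of miControl (edgeR).

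The 3 D-type cyclins were far apart in level. Per kb of exon, *CCND1* was at 325 ± 2.19 CPM, *CCND3* at 6.99 ± 0.582 CPM and *CCND2* at 2.50 ± 0.0511 CPM with miControl. With miR-6133-5p the levels per kb were 259.6 ± 5.41 CPM for *CCND1*, 10.5 ± 0.792 CPM for *CCND3* and 0.827 ± 0.00538 CPM for *CCND2*. *CCND1* made up 97.2% of the summed D-type cyclin level per kb with miControl and 95.8% with miR-6133-5p, and the sum was 1.23-fold lower. *CCND2* went from 0.748% to 0.305% of that sum and *CCND3* from 2.09% to 3.89%, and neither share overlapped between the groups.

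**Figure D3:**
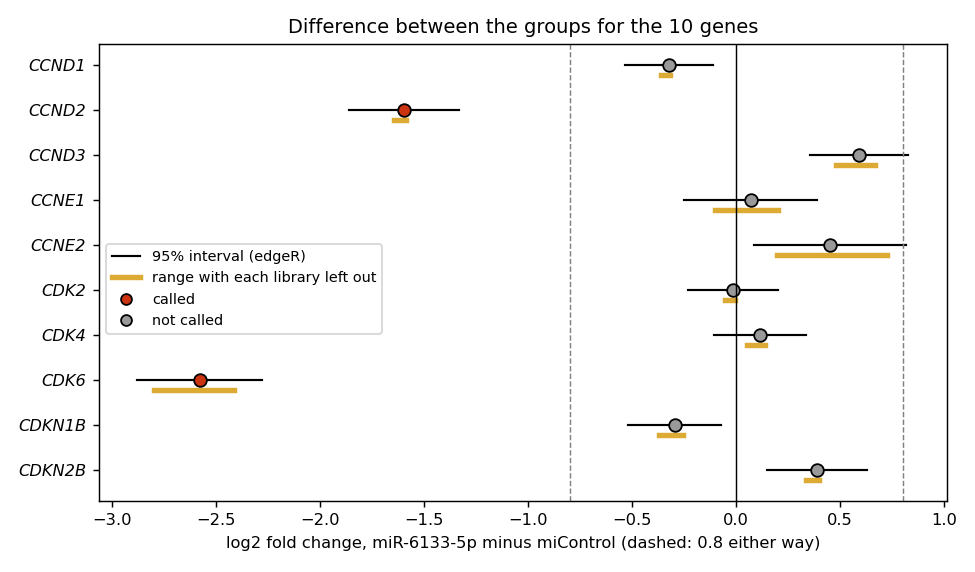
Log2 fold change of each of the 10 genes, miR-6133-5p minus miControl, with the 95% interval from edgeR as a black line, the range with each of the 4 libraries left out in turn as a yellow bar, and dashed lines at 0.8 either way. *CDK6* at -2.58 and *CCND2* at -1.60 lie beyond the dashed line with their whole intervals, and the other 8 genes lie between -0.32 and 0.59.

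The E-type cyclins, which activate CDK2, were at 5.67 to 9.73 CPM in the 4 libraries, and neither was called. *CCNE1*, on chromosome 19 from 30302898 to 30315219, was at 7.79 and 8.48 CPM with miControl and at 9.47 and 7.67 CPM with miR-6133-5p. The groups overlapped, and the log2 fold change of 0.07 had an interval of -0.25 to 0.39 (adjusted p = 0.775, edgeR). Its sign turned, to -0.10, without replicate 1 of miR-6133-5p.

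*CCNE2*, on chromosome 8 from 95891998 to 95908906, was at 5.67 and 8.28 CPM with miControl and at 9.39 and 9.73 CPM with miR-6133-5p. Both treated libraries were above both controls, but the 2 controls differed by about as much as the group means. The log2 fold change of 0.45 had an interval of 0.09 to 0.82 and missed the threshold (adjusted p = 0.0595, edgeR). It was 0.20 without replicate 1 of miControl and 0.73 without replicate 2 of miControl. *INTS8* and another gene of the other strand share 37.1% of the exon bases of *CCNE2*, and *INTS8* was at 18.6 to 21.6 CPM. The share of *CCNE1* in the summed E-type cyclin level per kb was 71.0% and 64.7% with miControl and 64.3% and 58.5% with miR-6133-5p.

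The 2 inhibitors differed in direction, and neither was called. *CDKN2B*, the gene of p15, lies on chromosome 9 from 22002902 to 22009304. It was at 17.7 and 17.2 CPM with miControl and at 22.6 and 23.1 CPM with miR-6133-5p. Both treated libraries were above the controls, by 30.8% or a log2 fold change of 0.39 (interval 0.15 to 0.63, adjusted p = 0.0179, edgeR), which missed both thresholds. With library totals alone it was 0.55 (adjusted p = 0.00186, edgeR), still short of 0.8.

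*CDKN1B*, the gene of p27, lies on chromosome 12 from 12838432 to 12875303. It was at 99.2 and 106 CPM with miControl and at 87.1 and 80.4 CPM with miR-6133-5p. Both treated libraries were below the controls, 1.23-fold or by a log2 fold change of -0.30 (interval -0.52 to -0.07, adjusted p = 0.0463, edgeR), which missed both thresholds. With library totals alone it was -0.13 (adjusted p = 0.352, edgeR). No exon of another gene in the annotation overlaps those of *CDKN1B* or *CDKN2B*.

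At an adjusted p below 0.05 without a fold threshold, 4 of the 10 genes were lower (*CCND1*, *CCND2*, *CDK6* and *CDKN1B*) and 2 were higher (*CCND3* and *CDKN2B*), against 16.1% and 14.1% of all tested genes, and 30.2% in either direction (edgeR). *CCND3* was also below 0.01, as were *CDK6* and *CCND2*, against 18.8% of all tested genes. Ordered by level per kb in the miControl cells, *CCND1* came first, followed by *CDK6*, *CDK4*, *CDK2* at 12.2 CPM, *CDKN1B* at 11.1 CPM, *CCND3*, *CDKN2B* at 4.37 CPM, *CCNE1* at 3.31 CPM, *CCND2* and *CCNE2* at 1.59 CPM. The libraries of neighbouring genes did not overlap in the order of either group, but with canonical transcripts as lengths *CDKN1B* at 42.6 CPM per kb preceded *CDK2* at 21.2 CPM per kb. With miR-6133-5p the order per kb of exon changed at 3 places. *CDK6* stood behind *CDK4*, and *CCND3* at 10.5 CPM per kb stood above *CDKN1B* at 9.05 CPM per kb. *CCND2* went from the ninth to the last place, below *CCNE2* at 2.17 CPM per kb. The place of *CCND3* above *CDKN1B* depended on the length used. With canonical transcripts as lengths, *CCND3* at 29.96 CPM per kb stayed below *CDKN1B* at 34.7 CPM per kb in the miR-6133-5p cells.

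The other cyclins and CDKs, taken by symbol after the values were seen, allow a comparison within these families. Of 19 tested CDK genes, *CDK6* was the only one called lower, against 5.54% of all tested genes. The next lowest was *CDK14*, at a log2 fold change of -0.796. *CDK5*, which acts mainly outside the cell cycle, and *CDK15* were called higher, at 0.98 and 1.04, against 2.9% of all tested genes. Of 25 tested cyclin genes, *CCND2* was the only one called, against 5.54% of all tested genes called lower and 2.9% called higher. The median log2 fold change of these cyclins was 0.17.

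Further cell cycle genes were described with 7 lists of 64 genes, all of which were tested. They are called the other G1/S lists here, but they also hold genes that act later, such as the later cyclins, *CDK1* and *CDC25C*. Counts and medians over the 64 genes are therefore not of G1/S genes alone. The lists were also chosen with earlier results of these data known, so their shares are descriptions and not a test. Of the 64 genes, 1 was called lower, against 5.54% of all tested genes, and 7 were called higher, against 2.9%. The median log2 fold change of the 64 genes was 0.23, against 0.03 for all tested genes. At an adjusted p below 0.05, 9 were lower and 22 were higher, against 16.1% and 14.1% of all tested genes (edgeR).

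Of the 6 other CDK inhibitor genes, none was called with edgeR, 1 was called lower with DESeq2, and all 6 had an unadjusted p below 0.05, against 40.3% of all tested genes. At an adjusted p below 0.05, 1 was lower and 3 were higher (edgeR). Of these 3, *CDKN1C* had only 2 and 6 counts with miControl and 18 and 32 counts with miR-6133-5p. *CDKN1A*, the gene of the inhibitor p21, was at 19.9 and 18.9 CPM with miControl and at 10.9 and 11.4 CPM with miR-6133-5p. The change of -0.796 on the log2 scale (adjusted p = 0.000212, edgeR) was just short of 0.8. *CDKN2C*, the gene of another inhibitor of CDK4 and CDK6, was at 56.7 and 55.5 CPM with miControl and at 96.5 and 87.3 CPM with miR-6133-5p, which is 0.71 on the log2 scale (adjusted p = 0.000188, edgeR). *CDKN1A*, *CDKN1C* and *CDKN2C* are named for their values, outside the rule for named genes.

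None of the 3 pocket protein genes, the retinoblastoma gene family, was called with edgeR or DESeq2. None had an unadjusted p below 0.05, against 40.3% of all tested genes. Their log2 fold changes ran from -0.11 to 0.02.

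Of 10 genes for E2F factors and their DP partners, 2 were called higher and none lower, against 2.9% and 5.54% of all tested genes. A negative log2 fold change was seen for 5. *E2F2*, an activator of S-phase genes, rose from 7.83 and 7.18 CPM to 13.9 and 14.9 CPM, or 0.94 on the log2 scale (SE 0.128 and adjusted p = 0.000115 by edgeR). *E2F5*, which acts mainly as a repressor, rose from 1.79 and 1.96 CPM to 3.52 and 3.19 CPM, or 0.83 on the log2 scale (SE 0.206 and adjusted p = 0.00798 by edgeR). The call of *E2F5* was lost with DESeq2, with thinned counts and with glmTreat. It was also lost when replicate 1 or replicate 2 of miControl or replicate 1 of miR-6133-5p was left out, with log2 fold changes of 0.76, 0.87 and 0.74. The call of *E2F2* was lost with glmTreat.

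Of 8 genes for the CDK-activating kinase and for the kinases and phosphatases that act on CDKs, 2 were called higher, against 2.9% of all tested genes. *MNAT1*, the assembly subunit of the CDK-activating kinase, was at 6.26 and 6.26 CPM with miControl and at 31.2 and 26.7 CPM with miR-6133-5p, or 2.21 on the log2 scale (SE 0.130 and adjusted p = 1.16e-07 by edgeR). Its partners in the complex were not called, with *CDK7* at -0.25 and *CCNH* at 0.48 on the log2 scale. *CDC25C*, a phosphatase that acts on CDK1 at mitosis, rose from 35.8 and 33.4 CPM to 69.8 and 65.1 CPM, or 0.96 on the log2 scale (SE 0.104 and adjusted p = 1.62e-05 by edgeR).

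Of 13 genes for ubiquitin ligases and related factors that act on p27, cyclin D or cyclin E, *SKP2* alone was called. Of all tested genes, 5.54% were called lower and 2.9% higher. *SKP2*, which marks p27 for degradation, fell from 200.4 and 203 CPM to 115 and 113 CPM, or -0.82 on the log2 scale (SE 0.101 and adjusted p = 4.53e-05 by edgeR). It was -0.66 and no longer called with library totals alone.

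No gene was called lower in the list of later cyclins with CDK1 or in that of E2F target and replication genes. Of the 6 later cyclin and CDK1 genes, none was called with edgeR or DESeq2, and 4 had an unadjusted p below 0.05, against 40.3% of all tested genes. All 6 had both miR-6133-5p libraries above both miControl libraries, where 33.2% of all tested genes had the same. Their median log2 fold change was 0.42. The largest, 1.19 for *CCNA1*, rested on 12 and 10 counts with miControl and 41 and 36 counts with miR-6133-5p. The smallest was 0.13 for *CCNA2* (adjusted p = 0.401, edgeR). Both genes are named for their values. Of 18 E2F target and replication genes, 3 were called higher and none lower, against 2.9% and 5.54% of all tested genes. Their median was 0.21. *TYMS*, for thymidylate synthase, rose from 24.2 and 24.5 CPM to 89.2 and 76.8 CPM, or 1.77 on the log2 scale (SE 0.112 and adjusted p = 2.03e-07 by edgeR). *RRM2*, for a ribonucleotide reductase subunit, rose from 126 and 124 CPM to 288 and 268 CPM, or 1.15 on the log2 scale (SE 0.103 and adjusted p = 3.23e-06 by edgeR). *TOP2A*, for topoisomerase II, rose from 747 and 1057 CPM to 1683 and 1875 CPM, or 0.98 on the log2 scale (SE 0.143 and adjusted p = 0.000198 by edgeR), and was at 0.74 and no longer called without replicate 1 of miControl. *MKI67*, the gene of the proliferation marker Ki-67, is named for its values, which were 1047 and 1313 CPM with miControl and 823 and 1540.1 CPM with miR-6133-5p, so that the groups overlapped.

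**Figure D4:**
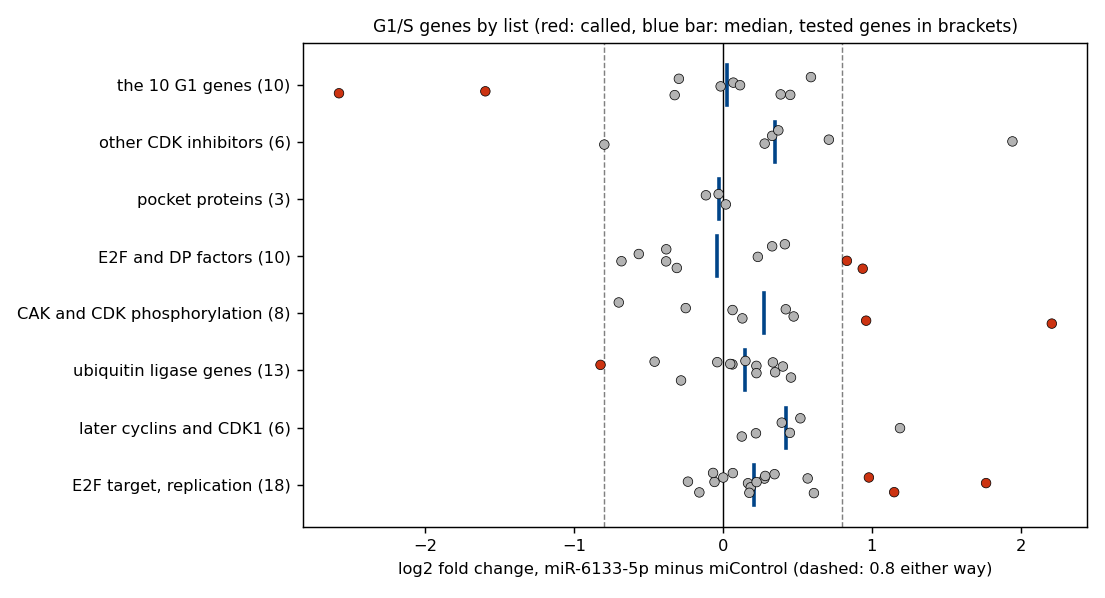
Log2 fold change of each tested gene, miR-6133-5p minus miControl, for the 10 genes and for the 7 other G1/S lists, with called genes in red, the median of each list as a blue bar and dashed lines at 0.8 either way. The falls of *CDK6* and *CCND2* lie apart from all other points, and the medians of the lists lie between -0.04 and 0.42.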

How the data were processed

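Total RNA of LX-2 cells was made into polyA-selected libraries with a strand-marking kit and sequenced as read pairs. The authors mapped the reads to GRCh37 with STAR 2.5.3a, and the submitters' processing notes also name featureCounts and Subread 1.6.4. The deposited values are whole-number counts per Ensembl gene without normalization, and the tables of the 4 single libraries were identical to the joint one. The strand setting and annotation release are not given in the sources used here. Counts summed to 1.68 to 1.70 times the uniquely mapped read pairs, so that a pair could give more than 1 count.

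Symbols, positions and exon lengths came from GENCODE lifted to GRCh37, and 43631 of 63677 genes had a symbol. PECAM1 was not matched. A further marker is not reported here. Genes that passed filterByExpr were tested in edgeR 4.0.16 (R 4.3.3) by glmQLFit and glmQLFTest on the 4 libraries with TMM factors, and p-values were adjusted over 18252 genes by Benjamini–Hochberg. Standard errors were derived from the F statistic, and 95% intervals from these with the total degrees of freedom of the fit. The p-values measure the spread between the libraries, which may be technical. The main fit did not pair the samples by replicate number, and the labels do not state a pairing. The correlation of same-numbered deviations was 0.05, which cannot show whether same-numbered replicates were made together. Alternatives were RLE factors, library totals, DESeq2 1.42.0, other filters, a replicate block, thinned counts, each library left out, glmTreat and an adjusted p of 0.05. The fits were tested on simulated data. The members and lists were chosen with earlier results of these data known. All 10 members are named, and of each other list at most the 4 called genes with the largest change. Tables and plots were made in Python 3.11.15 with pandas 2.3.3 and matplotlib 3.10.9.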

Additional observations from a re-analysis of the deposited data

How the results depend on the processing

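The 10 genes were refitted under 13 alternatives each, and 127 of the 130 log2 fold changes kept their direction and call. *CDK6* and *CCND2* were called lower, and none of the 10 higher, under all 13. The sign turned for *CCNE1* without replicate 1 of miControl (-0.00042) or of miR-6133-5p (-0.10, with -0.10 to 0.20 over the 4 left-out libraries), and for *CDK2* with library totals (0.15). With 3 libraries the lone library of a group is assumed to vary like the other group. With library totals, 977 genes in place of 529 were called higher and 42.05% in place of 65.65% of the calls were lower. With glmTreat against 0.8, 326 genes in place of 1011 were called lower and 80 were called higher. With each library left out in turn, 293 to 587 genes were called higher, the fewest without replicate 1 of miControl, and 770 to 1249 lower.

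Of the other G1/S genes, where 1 was called lower, 2 were with RLE factors, DESeq2, at least 10 counts in every library or thinned counts, 0 with library totals or glmTreat, and 1 to 3 with each library left out, with 3 without replicate 2 of miControl and 2 without replicate 2 of miR-6133-5p. Of the 7 called higher, 2 were with glmTreat and 5 to 7 with each library left out. Those kept with glmTreat were *MNAT1* and *TYMS*. With a replicate block, 1130 genes were called lower and 642 higher, and the calls of the 10 genes did not change. Block and pairing rest on a shared number alone.

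The shares depended on the length used. Undivided counts gave 96.3% (miControl) and 94.8% (miR-6133-5p) for *CCND1*, 90.3% and 58.9% for *CDK6* and 54.2% and 47.1% for *CCNE1*, and canonical transcripts, an alternative chosen after seeing the data, gave 94.1% and 90.4%, 59.9% and 18.8%, and 61.8% and 54.9%. Group direction was the same on each scale. *CCNE1* and *CCNE2*, with 279 to 965 counts per library, had the widest standard errors of the 10 genes.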
